A study of Mus musculus with 18 samples.

Results

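The genes described here are 10 genes of the ATF4 arm of the integrated stress response, followed in the RNA-seq of whole mouse embryos. They are Atf4, Atf5, Ddit3, Cebpb, Asns, Psat1, Phgdh, Slc7a11, Trib3 and Chac1, chosen by gene symbol as 10 of the 34244 named genes of the expression table, and all 10 were measured in every embryo. The study asked what the DNA methyltransferase Dnmt3b does in embryogenesis when its catalytic activity is lost, compared with loss of the whole protein. RNA came from 9 whole FVB embryos at E11.5, with 3 embryos of each genotype. Dnmt3b+/+ embryos were the wild-type controls. Dnmt3b-/- embryos carried a constitutive null allele derived from Dnmt3b 2loxP mice, and Dnmt3bCI/CI embryos carried a knock-in made with CRISPR/Cas9 that exchanges a pair of adjacent residues of the catalytic site. Embryos came from natural matings and had a heartbeat when they were processed. A whole embryo mixes all tissues, and fewer cells of a type cannot be told apart from less RNA per cell.

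In the integrated stress response, kinases that sense amino acid shortage, unfolded protein in the endoplasmic reticulum, viral RNA or haem shortage phosphorylate the translation factor eIF2. Global protein synthesis then falls, while translation of the Atf4 mRNA goes up, and the ATF4 protein binds DNA with a C/EBP partner and switches on genes for amino acid synthesis, amino acid import and tRNA charging. Prolonged signalling also induces the factor CHOP, encoded by Ddit3, and inhibitors that feed back on the pathway. Because ATF4 is controlled largely at translation, the mRNA of Atf4 does not measure ATF4 protein.

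The DNA word through which ATF4 and a C/EBP partner bind, the C/EBP-ATF composite element, is shown first because it links several of these genes. TGATGNAA was searched on both strands from 250 bases before to 50 bases after each RefSeq start on GRCm38.p6. It was found at 4 of the 10 genes (Asns, Slc7a11, Trib3 and Chac1), and at 4.51% of all 27025 genes with such a window. Slc7a11, the cystine importer, held it in 2 places. In the 30-base stretches below, written in gene sense, capitals mark the word or its reverse complement. Asns lies on the minus strand at chr6:7693214-7693243, with the word 23 bases upstream of the start. The Slc7a11 words begin 66 and 47 bases upstream, on the minus strand at chr3:50443661-50443690 and chr3:50443642-50443671. The Chac1 word begins 193 bases upstream, on the plus strand at chr2:119351038-119351067. The Trib3 word begins at base 15 of the transcript, on the minus strand at chr2:152344028-152344057.
Asns: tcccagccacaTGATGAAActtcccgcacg
Slc7a11, distal: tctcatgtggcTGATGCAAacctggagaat
Slc7a11, proximal: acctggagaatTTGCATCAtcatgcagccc
Chac1: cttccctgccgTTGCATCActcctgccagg
Trib3: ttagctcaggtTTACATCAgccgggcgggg
The side of 2 of these matches depends on the annotation. From the GENCODE M21 gene starts, the Asns word begins at base 23 of the gene and the Trib3 word 14 bases upstream, while the words of Slc7a11 and Chac1 stay upstream. A match is a description of these letters and not evidence of binding, and its absence from the windows of Atf4, Atf5, Ddit3, Cebpb, Psat1 and Phgdh says only that the word is not in those bases. Among 33 other genes regarded as ATF4 targets, 27 had a window and 10 of those (37%) held the word. Among these 10 were the transcription factor gene Atf3 (minus strand, chr1:191183425-191183454), with the word 110 bases upstream, and the lipoprotein receptor gene Vldlr (plus strand, chr19:27216809-27216838), with the word 200 bases upstream. They are shown because the mRNA of Atf3 rose and that of Vldlr fell in the embryos labelled Dnmt3b-/-, as described further on. Of the targets with a window, the word was at 2 of 5 that rose (Atf3 and Got1), 4 of 5 that fell (Jdp2, Nupr1, Pck2 and Vldlr) and 3 of 16 that did not pass. These counts are a description, and 3 of the 8 targets that rose had no window.
Atf3: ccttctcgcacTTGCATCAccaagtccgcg
Vldlr: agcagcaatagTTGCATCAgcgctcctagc

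**Figure D1:**
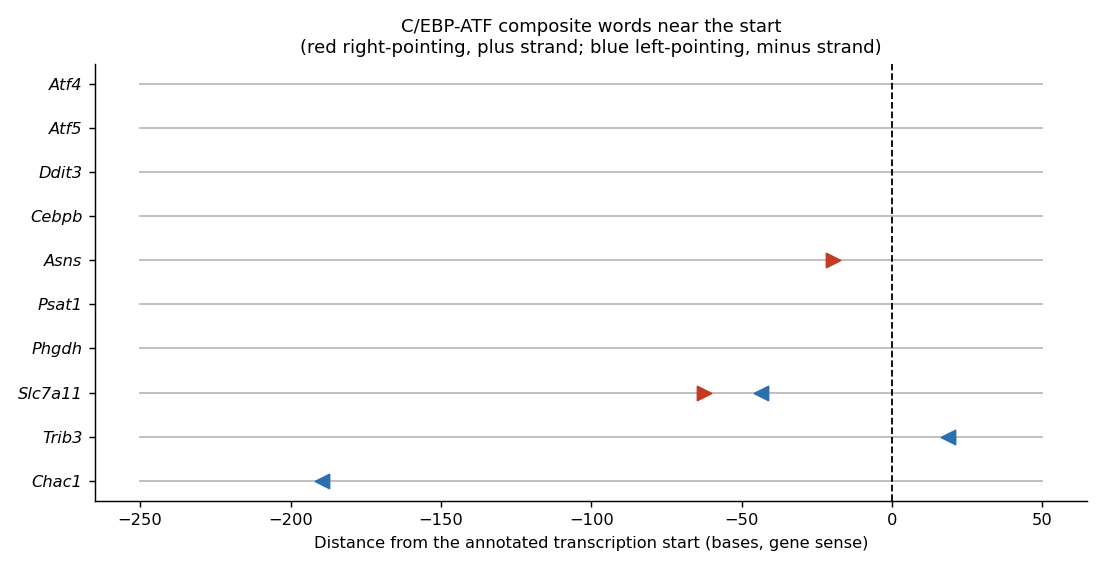
Position of TGATGNAA words near the annotated start of the 10 genes. The horizontal axis is the distance in bases from the RefSeq start in gene sense, each grey line is the searched window, and arrows are matches on the plus (right, red) or minus (left, blue) strand. The 5 matches sit at 4 genes, and only that of Trib3 lies after the RefSeq start.

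Each library corresponded to between 38451729 and 49808777 reads, so that a level of 1 FPKM rested on comparable numbers of reads in all 9 embryos. These totals were worked back from the value listed for genes with no reads, taken as 0.9 reads. Levels are in FPKM, reads scaled to the length of the gene and the size of the library. The Dnmt3b mRNA summed over the gene was 2.25, 1.62 and 2.04 FPKM in Dnmt3b+/+, 2.45, 3.12 and 3.33 FPKM in the group labelled Dnmt3b-/- and 2.06, 1.98 and 2.32 FPKM in Dnmt3bCI/CI. It was higher in the embryos labelled Dnmt3b-/-, by 0.57 on the log2 scale against Dnmt3b+/+ (adjusted p = 0.0248) and by 0.46 against Dnmt3bCI/CI (adjusted p = 0.0488) in the limma fit described below, and these embryos are named by their label. Embryo 1 labelled Dnmt3b-/- lay closer to the controls than the other 2 embryos of its group did. Its Euclidean distance over all tested genes, averaged over the Dnmt3b+/+ embryos, was 75.5 log2 units, against 91 for embryo 2 and 93.9 for embryo 3. Dnmt3b+/+ embryos 1, 2 and 3 were themselves at 63.2, 71.7 and 54.3 from the rest of their group. In the embryos labelled Dnmt3b-/-, 6 of 6 cartilage and 5 of 7 skeletal muscle markers were lower than in Dnmt3b+/+, 2 of 9 erythroid markers, both embryonic globins, were higher, and 0 of 8 neuron markers passed. Of all tested genes, 9.41% were higher and 16.4% lower by the same call, an adjusted p under 0.05. Dnmt3b+/+ embryo 2 also stood apart. In it, 7 of 8 hepatocyte markers were at most 0.119 FPKM and lower than in every other embryo. Alb, for example, was at 0.103 FPKM there, 85.7 and 43.7 FPKM in the other Dnmt3b+/+ embryos, 9.67 to 19.1 FPKM in the group labelled Dnmt3b-/- and 42.1 to 59.9 FPKM in Dnmt3bCI/CI. Ttr was the exception, at 35.5 FPKM. The part of these marker differences in the results below was not tested.

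The response genes did not move as a block in the embryos labelled Dnmt3b-/-. Trib3 and Phgdh rose against Dnmt3b+/+, no member fell, and 8 of the 10 did not pass. The call was an adjusted p under 0.05 in a limma fit of log2(FPKM + 0.1) over the 19397 genes that reached 0.1 FPKM in at least 3 embryos, with p-values adjusted over all of them. In the same comparison 9.41% of all tested genes were higher and 16.4% lower, so that 2 of 10 higher and 0 of 10 lower were not far from the background. The median difference of the 10 members was 0.02 on the log2 scale, against -0.07 for all tested genes. Between Dnmt3bCI/CI and Dnmt3b+/+, none of the 10 passed, where 0.129% of all genes were higher and 0.0155% lower. Across all genes, 1019 had an unadjusted p under 0.05 in that comparison, and no member was among the called genes under any alternative processing tried. Both comparisons use the same Dnmt3b+/+ embryos. Between the embryos labelled Dnmt3b-/- and Dnmt3bCI/CI, Trib3 was higher and Chac1 lower, beside 9.70% higher and 18.2% lower of all genes.

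**Figure D2:**
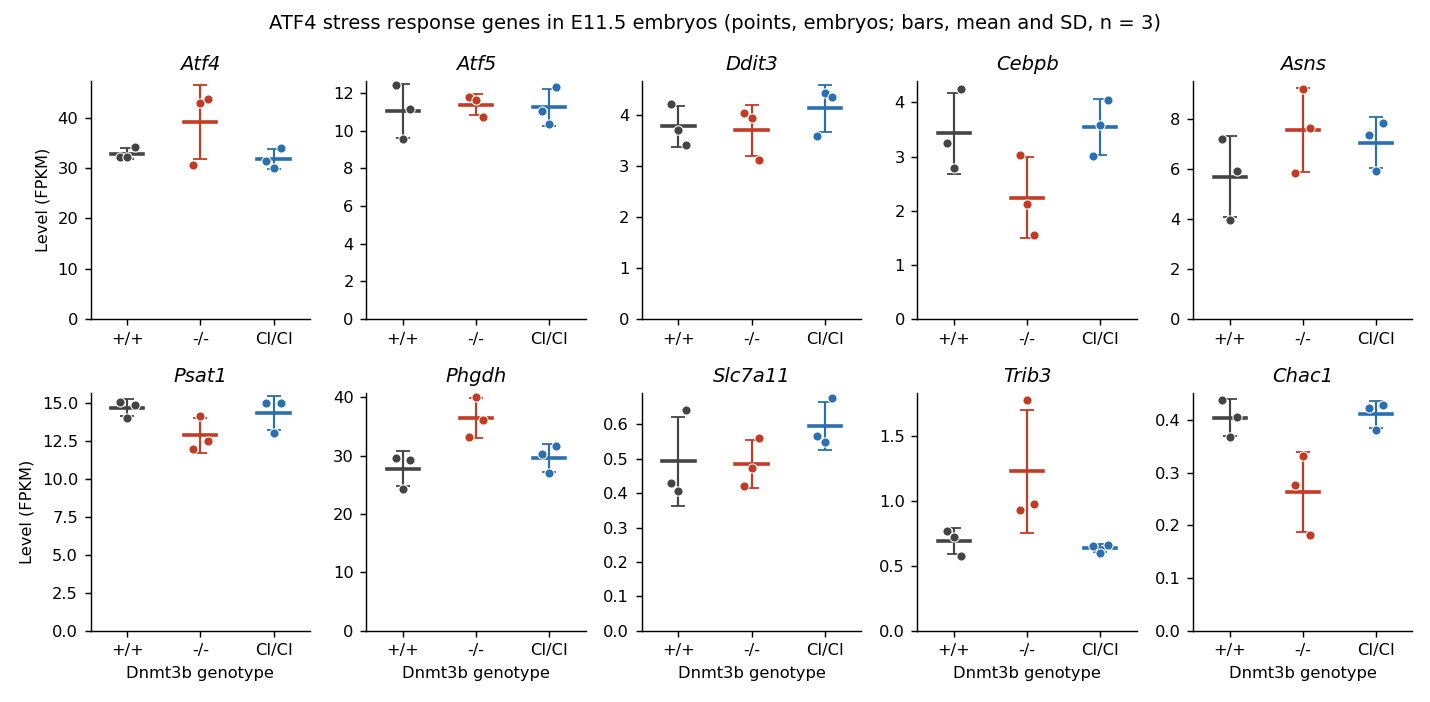
Level of the 10 genes in each of the 9 embryos. The vertical axis is FPKM from 0, points are embryos, and bars are the mean and SD of 3 embryos per genotype. All embryos labelled Dnmt3b-/- lie above both other genotypes for Phgdh and Trib3 and below both for Chac1, while Dnmt3bCI/CI overlaps Dnmt3b+/+ for all 10 genes. How many of all tested genes have groups apart in this way was not counted.

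Atf4, the central transcription factor of the response (chr15:80255184-80257541, plus strand), had the highest mean level of the 10 in each genotype, although Phgdh was above it in embryo 1 labelled Dnmt3b-/-. It was at 32.1, 32.2 and 34.1 FPKM in Dnmt3b+/+, at 30.6, 42.9 and 43.7 FPKM in the group labelled Dnmt3b-/-, and at 31.4, 29.9 and 33.9 FPKM in Dnmt3bCI/CI. Embryos 2 and 3 labelled Dnmt3b-/- stood above all others and embryo 1 below the controls, so that the groups overlapped. The fitted difference from Dnmt3b+/+ was 0.23 on the log2 scale (SE 0.13, 95% interval -0.06 to 0.52, adjusted p = 0.205). With embryo 1 labelled Dnmt3b-/- left out, it was 0.40 (adjusted p = 0.00354), and against Dnmt3bCI/CI 0.45 (adjusted p = 0.0020). Without embryo 2 or embryo 3 labelled Dnmt3b-/-, the difference from Dnmt3b+/+ was 0.16 (adjusted p = 0.474) or 0.14 (adjusted p = 0.495). A call on Atf4 therefore depended on embryo 1.

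Atf5, a related factor that is also translated under stress and is active in mitochondrial stress (chr7:44812256-44816658, minus strand), was at 12.4, 9.58 and 11.1 FPKM in Dnmt3b+/+, 11.8, 11.6 and 10.7 FPKM in the group labelled Dnmt3b-/- and 11.1, 10.3 and 12.3 FPKM in Dnmt3bCI/CI. The 3 groups overlapped. The difference between the embryos labelled Dnmt3b-/- and Dnmt3b+/+ was 0.05 (95% interval -0.18 to 0.28, adjusted p = 0.748). Its exons share 82 bases with Nup62 on the other strand, a nucleoporin gene that rose by 0.38 (adjusted p = 0.0114), and reads there cannot be told apart without strand information.

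Ddit3, which encodes the pro-apoptotic factor CHOP (chr10:127290774-127296288, plus strand), was at 4.21, 3.70 and 3.41 FPKM in Dnmt3b+/+. It was at 4.04, 3.93 and 3.12 FPKM in the group labelled Dnmt3b-/- and 3.59, 4.42 and 4.36 FPKM in Dnmt3bCI/CI. No genotype stood apart. The difference between the embryos labelled Dnmt3b-/- and Dnmt3b+/+ was -0.03 (95% interval -0.32 to 0.26, adjusted p = 0.867). Of its exon bases, 68 are shared with Mars, a tRNA synthetase gene on the other strand that rose by 0.21 (adjusted p = 0.0452). A second gene entry, also named Ddit3, shares 105 exon bases on the same strand, where strand information would not tell reads apart.

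Cebpb, a C/EBP factor that partners ATF4 (chr2:167688915-167690418, plus strand), was at 3.25, 2.79 and 4.26 FPKM in Dnmt3b+/+, 3.03, 2.13 and 1.56 FPKM in the group labelled Dnmt3b-/- and 3.01, 3.58 and 4.05 FPKM in Dnmt3bCI/CI. Embryos 2 and 3 labelled Dnmt3b-/- were the lowest of the 9, while embryo 1 lay within the range of the controls. The difference from Dnmt3b+/+ was -0.62 (SE 0.24, 95% interval -1.16 to -0.08, adjusted p = 0.0867) and that from Dnmt3bCI/CI was -0.68 (adjusted p = 0.0634). Without embryo 1 labelled Dnmt3b-/- the former was -0.86 (adjusted p = 0.0152), and without embryo 3 it was -0.40 (adjusted p = 0.246). Cebpb is strongly expressed in macrophages, and 3 of 8 macrophage markers were lower and 1 higher than in Dnmt3b+/+, beside 16.4% and 9.41% of all genes, with summed levels of 15.6 to 20.9 FPKM against 19.8 to 20.8 FPKM. Against Dnmt3bCI/CI, with summed levels of 22.3 to 25.4 FPKM, 5 of the 8 were lower and 0 higher, beside 18.2% and 9.70% of all genes. Their part in the result was not tested. Its exons share 312 bases with Tmem189 on the other strand, which differed by 0.08 (adjusted p = 0.536).

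Phgdh encodes the enzyme of the first step of serine synthesis from a glycolytic intermediate (chr3:98313170-98339990, minus strand). It was at 29.7, 24.4 and 29.3 FPKM in Dnmt3b+/+, 33.2, 40.0 and 36.2 FPKM in the group labelled Dnmt3b-/- and 30.3, 27.0 and 31.7 FPKM in Dnmt3bCI/CI. All embryos labelled Dnmt3b-/- lay above all 6 others. Phgdh rose against Dnmt3b+/+ by 0.39 (SE 0.10, 95% interval 0.16 to 0.62, adjusted p = 0.0259), a ratio of means of 1.31. Against Dnmt3bCI/CI the difference was 0.30 (adjusted p = 0.0621). The call against Dnmt3b+/+ was lost without Dnmt3b+/+ embryo 2 (0.30, adjusted p = 0.066), without embryo 2 labelled Dnmt3b-/- (0.32, adjusted p = 0.0905) and without embryo 3 labelled Dnmt3b-/- (0.40, adjusted p = 0.0689). It was also lost with no filter on low values, quantile normalization, a replicate block or only the 2 genotypes compared (adjusted p from 0.0533 to 0.0589), in all 7 of 18 alternatives. Phgdh is strongly expressed in the neuroepithelium, and 1 of 8 neural progenitor markers, Nes, was higher than in Dnmt3b+/+, close to the 9.41% of all genes, with summed levels of 251 to 341 FPKM against 233 to 315 FPKM. Against Dnmt3bCI/CI, with summed levels of 232 to 262 FPKM, 4 of the 8 were higher (Sox1, Sox2, Nes and Msi1), beside 9.70% of all genes. Their part in the result was not tested.

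Psat1, the aminotransferase of the next step of serine synthesis (chr19:15904678-15947337, minus strand), did not follow Phgdh. It was at 15.1, 14.0 and 14.9 FPKM in Dnmt3b+/+, 12.0, 14.1 and 12.5 FPKM in the group labelled Dnmt3b-/- and 15.0, 13.0 and 15.0 FPKM in Dnmt3bCI/CI. Embryos 1 and 3 labelled Dnmt3b-/- were the lowest of the 9, and embryo 2 overlapped with the controls. The difference from Dnmt3b+/+ was -0.19 (SE 0.08, 95% interval -0.38 to -0.004, adjusted p = 0.118), with the sign opposite to that of Phgdh.

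Asns, which makes asparagine (chr6:7675169-7693254, minus strand), varied within each genotype. It was at 7.19, 3.99 and 5.95 FPKM in Dnmt3b+/+, 5.83, 9.22 and 7.66 FPKM in the group labelled Dnmt3b-/- and 7.39, 5.91 and 7.86 FPKM in Dnmt3bCI/CI. Embryo 2 of Dnmt3b+/+ was the lowest and embryo 2 labelled Dnmt3b-/- the highest, and all 3 groups overlapped. The lowest embryo is the one with 7 of 8 hepatocyte markers near 0, whose part in the result was not tested. The difference between the embryos labelled Dnmt3b-/- and Dnmt3b+/+ was 0.42 (SE 0.23, 95% interval -0.11 to 0.95, adjusted p = 0.214), and 0.18 (adjusted p = 0.549) without Dnmt3b+/+ embryo 2. That between Dnmt3bCI/CI and Dnmt3b+/+ was 0.33 (adjusted p = 0.949).

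Slc7a11, the light chain of the transporter that imports cystine in exchange for glutamate (chr3:49892526-50443614, minus strand), was low. It was at 0.430, 0.405 and 0.641 FPKM in Dnmt3b+/+, 0.421, 0.473 and 0.560 FPKM in the group labelled Dnmt3b-/- and 0.565, 0.548 and 0.676 FPKM in Dnmt3bCI/CI. The groups overlapped. The difference between the embryos labelled Dnmt3b-/- and Dnmt3b+/+ was -0.003 (95% interval -0.40 to 0.39, adjusted p = 0.993). Its long mRNA gave 234 to 362 reads per embryo, beside 217 to 328 for Ddit3.

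Trib3 encodes a pseudokinase that is induced by ATF4 and CHOP and restrains both (chr2:152337422-152344032, minus strand). It was at 0.770, 0.718 and 0.576 FPKM in Dnmt3b+/+, 0.932, 1.77 and 0.975 FPKM in the group labelled Dnmt3b-/- and 0.650, 0.598 and 0.661 FPKM in Dnmt3bCI/CI. All embryos labelled Dnmt3b-/- lay above all 6 others, and embryo 2 stood well above its 2 group mates. Trib3 rose by 0.70 against Dnmt3b+/+ (SE 0.22, 95% interval 0.20 to 1.21, adjusted p = 0.0474) and by 0.79 against Dnmt3bCI/CI (95% interval 0.29 to 1.30, adjusted p = 0.0297). The ratios of means were 1.78 and 1.93. Against Dnmt3b+/+ the call was lost in 13 of 17 alternatives, among them the omission of any embryo other than embryo 1 labelled Dnmt3b-/-, and without embryo 2 labelled Dnmt3b-/- the difference was 0.43 (adjusted p = 0.0836). Against Dnmt3bCI/CI it was lost when any Dnmt3bCI/CI embryo was left out (0.76 to 0.82, adjusted p from 0.072 to 0.0854), and without embryo 2 labelled Dnmt3b-/- the difference was 0.52 (adjusted p = 0.0446).

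Chac1 encodes an enzyme that degrades glutathione and is a strong target of ATF4 in cultured cells (chr2:119351229-119354381, plus strand). It moved the other way from Trib3, at 0.438, 0.368 and 0.405 FPKM in Dnmt3b+/+, 0.276, 0.331 and 0.181 FPKM in the group labelled Dnmt3b-/- and 0.422, 0.381 and 0.429 FPKM in Dnmt3bCI/CI. All embryos labelled Dnmt3b-/- lay below all 6 others. The values rest on few reads, 18, 23 and 12 in the embryos labelled Dnmt3b-/- against 26 to 32 in the other embryos. Chac1 fell by 0.52 against Dnmt3bCI/CI (95% interval -0.89 to -0.14, adjusted p = 0.0472), and differed by -0.50 from Dnmt3b+/+ (SE 0.17, 95% interval -0.87 to -0.12, adjusted p = 0.057). The call against Dnmt3bCI/CI held in 5 of 17 alternatives, in 1 of them at an adjusted p that rounds to 0.05, and without embryo 3 labelled Dnmt3b-/- the difference was -0.34 (adjusted p = 0.126).

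**Figure D3:**
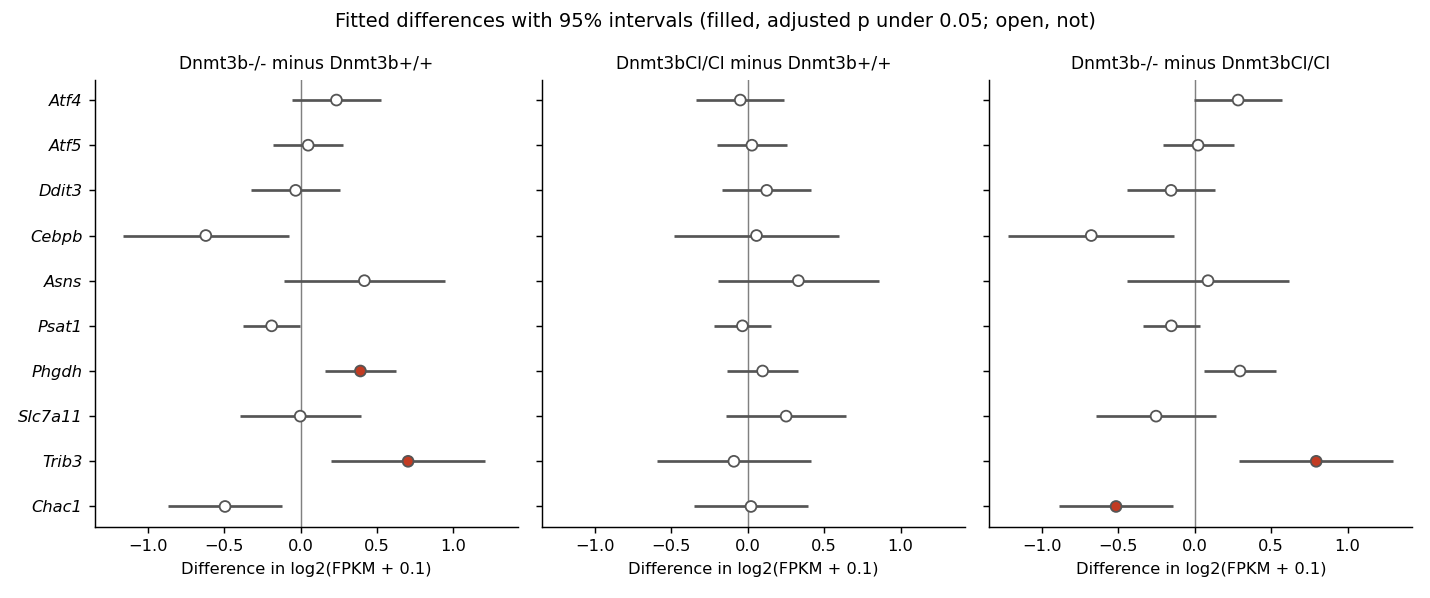
Fitted differences of the 10 genes in the 3 comparisons. The horizontal axis is the difference in log2(FPKM + 0.1), lines are 95% intervals, and filled points have an adjusted p under 0.05. Filled points are Phgdh (0.39) and Trib3 (0.70) in the left panel, none in the middle panel, and Trib3 (0.79) and Chac1 (-0.52) in the right panel.

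Ordered by level in Dnmt3b+/+ on the FPKM scale, the genes ran from Atf4 (mean 32.8 ± 1.11 SD, n = 3) and Phgdh (27.8 ± 2.98) over Psat1 (14.7 ± 0.559) and Atf5 (11.1 ± 1.43) to Asns (5.71 ± 1.62), Ddit3 (3.77 ± 0.406) and Cebpb (3.43 ± 0.750), and ended with Trib3 (0.688 ± 0.10), Slc7a11 (0.492 ± 0.130) and Chac1 (0.404 ± 0.0350). The neighbours Asns, Ddit3 and Cebpb overlapped between embryos, as did Trib3, Slc7a11 and Chac1. The Atf4 values gave whole reads with a length of 1724 bases and not with the 2358 exon bases of the annotation, so that its place at the top depends on the length used. Over the 9 embryos, the mRNAs that followed Atf4 most closely were Cebpz (Pearson r = 0.982), Bud31 (0.976), Ywhae (0.968), Prpf38a (0.966) and Tcp1 (0.964), as a description over points that share genotype. Cebpz, for example, was at 10.3 and 10.4 FPKM in embryos 2 and 3 labelled Dnmt3b-/- and between 7.57 and 8.60 FPKM in the other 7 embryos. Without those 2 embryos, r of the 5 genes was 0.714 to 0.821.

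Upstream of ATF4, the eIF2 kinases, phosphatase subunits and the exchange factor eIF2B were listed. Of these 16 eIF2 pathway genes, 3 rose and 1 fell in the embryos labelled Dnmt3b-/- against Dnmt3b+/+, beside 9.41% and 16.4% of all genes. The 3 became 6, 1 and 1 without embryos 1, 2 and 3 labelled Dnmt3b-/- and 2 without Dnmt3b+/+ embryo 2 or 3. Eif2ak3, which encodes the endoplasmic reticulum kinase PERK, was at 3.01, 3.40 and 3.00 FPKM in Dnmt3b+/+ and 2.65, 2.32 and 2.21 FPKM in the group labelled Dnmt3b-/-, and fell by 0.38 (adjusted p = 0.0162), a call that was lost without embryo 2 or embryo 3 labelled Dnmt3b-/-. The 3 that rose were Eif2s2, a subunit of eIF2 itself (0.39), and Eif2b5 (0.27) and Eif2b2 (0.20), subunits of its exchange factor eIF2B. The amino acid sensing kinase gene Eif2ak4 (GCN2) differed by -0.05 (adjusted p = 0.72), and Ppp1r15a (GADD34), the inducible phosphatase subunit and a classic target, by 0.26 (adjusted p = 0.349).

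Of 32 other ATF4 targets tested, 8 rose and 5 fell in the embryos labelled Dnmt3b-/- against Dnmt3b+/+, beside 9.41% higher and 16.4% lower of all genes, so that the share that fell was close to the background. Their median was 0.06 against -0.07 for all genes. Sesn2, a stress-induced inhibitor of mTORC1 that is also a p53 target, changed most. It was at 3.42, 3.24 and 3.18 FPKM in Dnmt3b+/+, 8.88, 9.70 and 9.09 FPKM in the group labelled Dnmt3b-/- and 3.17, 3.24 and 3.59 FPKM in Dnmt3bCI/CI. The groups were far apart, with a rise of 1.47 (adjusted p = 1.3e-05) against Dnmt3b+/+ and 1.44 against Dnmt3bCI/CI. Cth, which makes cysteine from cystathionine, rose by 0.74, the translation repressor gene Eif4ebp1 by 0.57, the glutamine transporter gene Slc1a5 by 0.56 and the transcription factor gene Atf3 by 0.59. Got1 (0.35), Psph (0.34) and Shmt2 (0.28), enzymes of aspartate, serine and glycine metabolism, completed the 8. Jdp2 (-0.61), Vldlr (-0.59), Nupr1 (-0.54), Slc7a1 (-0.37) and Pck2 (-0.37), which encode a transcription factor, a lipoprotein receptor, a stress-induced chromatin protein, an arginine transporter and mitochondrial phosphoenolpyruvate carboxykinase, fell.

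Some of these counts rested on particular embryos. The 8 that rose became 3 without embryo 2 and 3 without embryo 3 labelled Dnmt3b-/-, and 5 without Dnmt3b+/+ embryo 2. The 5 that fell became 1 without Dnmt3b+/+ embryo 3 and without embryo 2 or 3 labelled Dnmt3b-/-, 2 or 3 without Dnmt3b+/+ embryo 2 or any Dnmt3bCI/CI embryo, and 0 after quantile normalization. Beside the rise of Atf3, 6 of 6 tested immediate early genes rose against Dnmt3b+/+ in the group labelled Dnmt3b-/-, where 9.41% of all genes did, with summed levels of 74.4 to 81.3 FPKM in those embryos against 43.6 to 47.7 FPKM in Dnmt3b+/+ and 45.2 to 51.6 FPKM in Dnmt3bCI/CI, and their part in the result was not tested. Against Dnmt3bCI/CI, 5 of the 32 were higher and 8 lower in the embryos labelled Dnmt3b-/-, beside 9.70% and 18.2% of all genes. In Dnmt3bCI/CI, 0 of the 32 passed against Dnmt3b+/+, beside 0.129% higher and 0.0155% lower of all genes.

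The aminoacyl-tRNA synthetases of the cytosol, which charge tRNAs with amino acids, include several ATF4 targets. Of 20 genes, 10 rose and 0 fell in the embryos labelled Dnmt3b-/- against Dnmt3b+/+, beside 9.41% and 16.4% of all genes, and the fitted difference was positive for 20 of 20, with a median of 0.22 against -0.07 for all genes. It was positive for 20 of 20 also after median-of-ratios scaling and after quantile normalization, which gave 10 and 6 calls. Vars, the valine enzyme, was at 19.9, 19.9 and 21.5 FPKM in Dnmt3b+/+, 26.8, 26.5 and 25.9 FPKM in the group labelled Dnmt3b-/- and 19.3, 19.5 and 21.1 FPKM in Dnmt3bCI/CI, and rose by 0.37 (adjusted p = 0.00323). The groups did not overlap. Dars (0.30) and Cars (0.29), for aspartate and cysteine, followed. Against Dnmt3bCI/CI, 8 rose, beside 9.70% of all genes. Between Dnmt3bCI/CI and Dnmt3b+/+ none passed, beside 0.129% higher and 0.0155% lower of all genes. The median there was 0.01, against 0.02 for all genes. The 10 became 16 without embryo 1, 3 without embryo 2 and 6 without embryo 3 labelled Dnmt3b-/-, 5, 5 and 4 without Dnmt3b+/+ embryos 1, 2 and 3, and 6 without Dnmt3bCI/CI embryo 3.

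**Figure D4:**
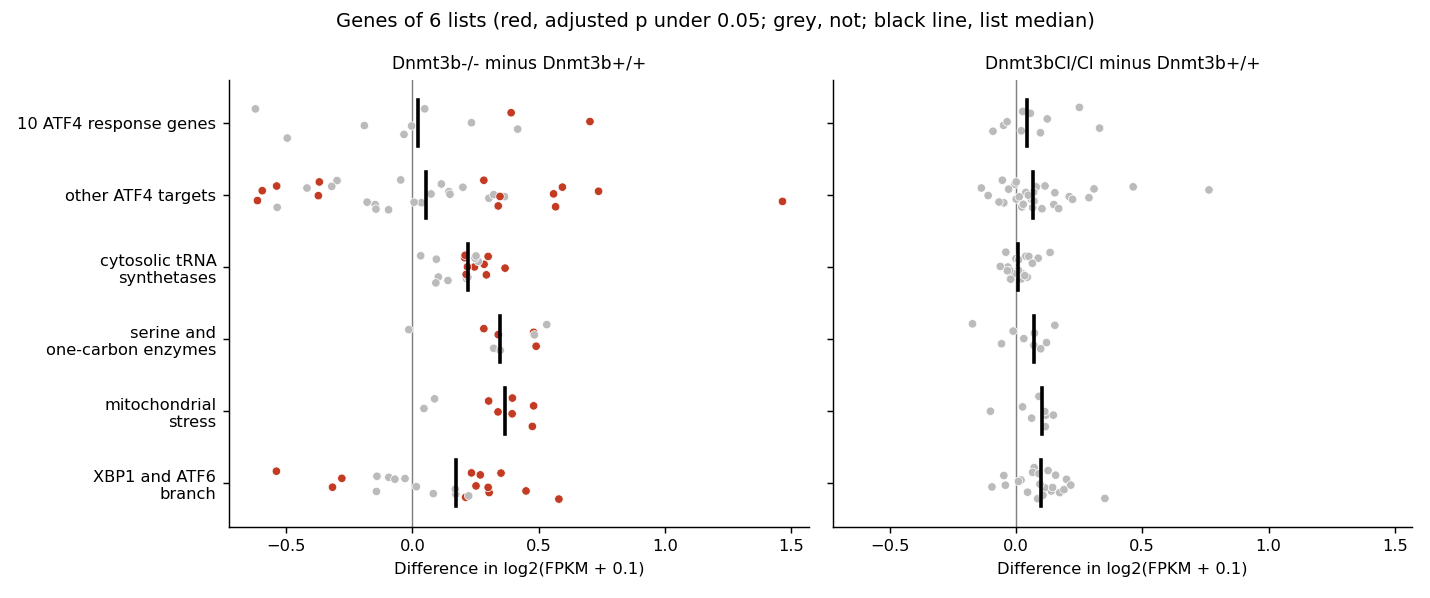
Differences of the genes in 6 lists, in the embryos labelled Dnmt3b-/- (left) and in Dnmt3bCI/CI (right), both against the same Dnmt3b+/+ embryos. The horizontal axis is the difference in log2(FPKM + 0.1), points are genes (red, adjusted p under 0.05), and black lines are list medians, which are 0.02 for the 10 response genes and 0.22 for the tRNA synthetases in the left panel. No point is red in the right panel, a comparison in which 0.129% of all genes were higher and 0.0155% lower.

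Enzymes that lie beyond Phgdh and Psat1 in serine and one-carbon metabolism were tested as well. Of 9, 4 rose and 0 fell in the embryos labelled Dnmt3b-/- against Dnmt3b+/+, beside 9.41% and 16.4% of all genes, with a median of 0.35. These were Mthfd1 (0.49), a folate enzyme, Shmt1 (0.48) and Shmt2, which convert serine to glycine, and Psph, which completes serine synthesis. Shmt2 and Psph are also among the 8 other ATF4 targets that rose, and the uncalled Mthfd2 is in both lists too. The count became 8 without embryo 1, 0 without embryo 2 and 1 without embryo 3 labelled Dnmt3b-/-, 0 and 1 without Dnmt3b+/+ embryos 2 and 3, and 2 without Dnmt3bCI/CI embryo 1 or 3. Against Dnmt3bCI/CI, 1 of the 9 rose, close to the 9.70% of all genes. Of 7 glutamate and glutathione enzymes, 1 rose and 1 fell against Dnmt3b+/+, close to the 9.41% and 16.4% of all genes. Glul, which makes glutamine, rose by 0.28 and Ggt5, which cleaves extracellular glutathione conjugates, fell by 0.95, while Chac2, the relative of Chac1, differed by -0.17 (adjusted p = 0.574).

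Beside PERK, the unfolded protein response has an IRE1-XBP1 arm and an ATF6 arm, whose targets, listed together here, include the chaperones of the endoplasmic reticulum. Of 22 genes, 9 rose and 3 fell in the embryos labelled Dnmt3b-/- against Dnmt3b+/+, beside 9.41% and 16.4% of all genes, with a median of 0.17. Quantile normalization left 3 that rose and 2 that fell, with a median of 0.06. The chaperone-related genes Sdf2l1 (0.58), Creld2 (0.45) and Hyou1 (0.35) rose most, and the sensor genes Ern1 (-0.54) and Atf6 (-0.28) and the degradation gene Sel1l (-0.32) fell. Against Dnmt3bCI/CI, 1 rose and 3 fell, shares below the 9.70% and 18.2% of all genes. The 9 became 1 and 4 without embryos 2 and 3 labelled Dnmt3b-/-, and 2 without Dnmt3b+/+ embryo 2 or 3. Mitochondrial proteases and chaperones, another source of ATF4 activation when mitochondria are impaired, were higher for 6 of 8 tested genes against Dnmt3b+/+, beside 9.41% of all genes, with a median of 0.37. They included Hspe1 (0.48), Hspd1 (0.48) and Hspa9 (0.40). The 6 became 3 after quantile normalization, 2 without Dnmt3b+/+ embryo 2 and 2 without embryo 2 or 3 labelled Dnmt3b-/-. In Dnmt3bCI/CI against Dnmt3b+/+, 0 genes of either list passed, beside 0.129% higher and 0.0155% lower of all genes.

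Relatives of the 10 genes, members of the same protein families, were also measured. Of 21 tested, 1 rose and 6 fell in the embryos labelled Dnmt3b-/- against Dnmt3b+/+, beside 9.41% and 16.4% of all genes. The 6 became 4 after quantile normalization and 3 without embryo 2 labelled Dnmt3b-/-, and the rise of Atf3, which is also an ATF4 target counted above, was lost without Dnmt3b+/+ embryo 2 or 3 and without embryo 2 or 3 labelled Dnmt3b-/-. Atf7, a factor of the same superfamily, was at 3.95, 3.57 and 3.98 FPKM in Dnmt3b+/+ and 2.65, 2.36 and 2.23 FPKM in the group labelled Dnmt3b-/-, with no overlap, and fell by 0.65 (adjusted p = 0.0025). Cebpa, a C/EBP factor of liver, fat and myeloid cells, fell by 0.69. It was at 3.70, 2.53 and 3.80 FPKM in Dnmt3b+/+ and 2.25, 2.23 and 1.59 FPKM in the group labelled Dnmt3b-/-, and the lowest of the controls was again embryo 2. Beside it, 1 of 8 hepatocyte markers, Ttr, passed as lower and 0 as higher, beside 16.4% and 9.41% of all genes. Ttr did not follow the other 7, as it was at 35.5 FPKM in Dnmt3b+/+ embryo 2, and those 7 did not pass. Summed levels of the 8 were 35.9 to 264 FPKM in Dnmt3b+/+ and 54.2 to 111 FPKM in the group labelled Dnmt3b-/-. The part of these markers in the result was not tested. Cebpg, the small C/EBP partner of ATF4, differed by 0.07 at a mean of 5.93 FPKM in Dnmt3b+/+. Trib2, which was far more abundant than Trib3 at 15.2 FPKM in Dnmt3b+/+, fell by 0.60, opposite to Trib3, and Trib1 differed by 0.08. In the amino acid transporter family of Slc7a11, Slc7a8 fell by 0.83 and Slc7a10 by 0.72. Atf6, counted above with the unfolded protein response, was the remaining relative that fell. Slc3a2, the heavy chain that Slc7a11 needs, differed by 0.20 (adjusted p = 0.0899).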

How the data were processed

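RNA-seq of 9 whole FVB embryos at E11.5 was used, 3 independent embryos for each of 3 genotypes, grouped by the sample labels. The authors aligned trimmed paired-end reads to mm10 with STAR, discarded alignments of low mapping quality and summed reads per gene in SeqMonk. The deposited table gives FPKM on the linear scale for 34245 genes, 1 of them without a name. Annotation release and strandedness are not given in the sources used here. Genes with no reads are listed at the equivalent of 0.9 reads. Values under 50 reads came out whole (within 0.02) for 87.6% to 88.4% with GENCODE M21 lengths, and reads were used to give the depth of libraries and genes, not in tests. Levels were tested with limma 3.58.1 in R 4.3.3 on log2(FPKM + 0.1), with 1 model for the 3 genotypes, a trend on the mean level, genes of at least 0.1 FPKM in at least 3 embryos (19397 genes) and Benjamini-Hochberg adjustment over all of them. Fold changes of genes at low levels are understated on this scale. The procedure was tested on simulated data. Gene positions are those of GENCODE M21 on GRCm38, and promoter windows those of RefSeq on GRCm38.p6.

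The 10 genes and all gene lists were chosen with earlier results of these data known. Named were the 10 genes, every called gene among other ATF4 targets and relatives, up to 3 called genes per direction of each further list, and the 5 genes most correlated with Atf4 (mean of at least 1 FPKM). Ppp1r15a, Eif2ak4, Shmt2, Psph, Slc3a2, Chac2 and the uncalled relatives were named for their role. Alternatives were other pseudocounts (0.01 and 1 FPKM), filters, scalings and models, a replicate block and the omission of each embryo. Bisulfite sequencing was not used here.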

Additional observations from a re-analysis of the deposited data

How the results depend on the processing

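Against Dnmt3b+/+, the number of members higher in the embryos labelled Dnmt3b-/- was 2 as reported, 1 with a pseudocount of 1 FPKM, a filter of at least 1 FPKM in 3 embryos, quantile normalization or no trend on the mean level, and 0 with no filter on low values or only the 2 genotypes compared. It ranged from 0 to 3 when single embryos were left out. The number lower was 0 as reported and 1 with a pseudocount of 1 FPKM or no trend, and 0 to 1 with single embryos left out. Against Dnmt3bCI/CI, the number higher was 1 as reported, 2 with median-of-ratios scaling, 0 with no filter or the stricter filter, and 0 to 3 with single embryos left out. The number lower was 1 as reported, 0 with a pseudocount of 0.01 FPKM, no filter, the stricter filter, quantile normalization or only the 2 genotypes compared, and 0 to 1 with single embryos left out. The stricter filter removes Trib3, Chac1 and Slc7a11 from the test. The causes of the other changes were not tested. For Dnmt3bCI/CI against Dnmt3b+/+ the count was 0 in both directions under every alternative run.

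The labels do not say whether same-numbered embryos of different genotypes share a litter or a batch. Deviations of same-numbered embryos correlated with a mean r of -0.087 (-0.34 to 0.215), against 0.048 (-0.269 to 0.33) for other pairs. Because these ranges overlap, the values do not decide whether the embryos are paired. With a replicate block, the member counts were 0 higher and 0 lower against Dnmt3b+/+, and 0 and 0 against Dnmt3bCI/CI, and 8, 5 and 10 calls among other targets (higher, lower) and synthetases became 5, 2 and 3. With the same block, the rises numbered 0 in place of 4 among serine and one-carbon enzymes, 2 in place of 6 in mitochondrial stress, 3 in place of 9 in the XBP1 and ATF6 branch and 2 in place of 3 in the eIF2 pathway, and 4 in place of 6 relatives fell. The list counts under each alternative were added after seeing the data.

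Signs turned only for differences that did not pass. After quantile normalization, that of Ddit3 from Dnmt3b+/+ became 0.066 and that of Slc7a11 0.21 (0.008 with median-of-ratios scaling), in the embryos labelled Dnmt3b-/-. Chac1 became -0.037 in Dnmt3bCI/CI against Dnmt3b+/+, and Slc7a11 0.005 between the 2 mutants. With single embryos left out, the difference between the embryos labelled Dnmt3b-/- and Dnmt3b+/+ ranged from -0.05 to 0.14 for Atf5, from -0.101 to 0.081 for Ddit3 and from -0.11 to 0.17 for Slc7a11. That between Dnmt3bCI/CI and Dnmt3b+/+ ranged from -0.071 to 0.116 for Atf5, from -0.077 to 0.219 for Cebpb, from -0.070 to 0.033 for Psat1 and from -0.031 to 0.070 for Chac1. That between the embryos labelled Dnmt3b-/- and Dnmt3bCI/CI ranged from -0.036 to 0.088 for Atf5 and from -0.067 to 0.259 for Asns.

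Chac1 and Trib3 rest on 12 to 160 reads per embryo, and 3 embryos per genotype limit every test. Quantile normalization moved the median difference of all genes from -0.07 to 0.03.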

Other observations

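Cytosolic heat shock genes and NRF2 targets were measured beside the ATF4 genes. Of 9 heat shock genes, 2 rose in the embryos labelled Dnmt3b-/- against Dnmt3b+/+, the chaperone genes Hsp90aa1 (0.59, adjusted p = 0.00882) and Hsph1 (0.49, adjusted p = 0.014), and 0 fell, beside 9.41% higher and 16.4% lower of all genes. Hspa1a, an inducible chaperone gene at a mean of 0.498 FPKM in Dnmt3b+/+, differed by 0.52 (adjusted p = 0.187). Of 8 NRF2 targets, which answer oxidative stress, Txnrd1, the cytosolic thioredoxin reductase, rose by 0.35 (adjusted p = 0.00507), 1 gene of the 8 and close to the background share, while Nqo1 (0.27, adjusted p = 0.292) and Hmox1 (-0.04, adjusted p = 0.792) did not pass. In Dnmt3bCI/CI, 0 genes of either list passed against Dnmt3b+/+, beside 0.129% higher and 0.0155% lower of all genes.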
